A study of Mus musculus with 9 samples.

Results

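The 37 genes described here make, sense, move and store sterols, together with the fatty acid genes controlled with them. They were chosen by gene symbol with earlier results of these data known, and all 37 were found among the 55487 genes of the counts table. All 37 also passed the filter on low counts that left 16353 genes for testing. They comprise 18 genes of sterol synthesis, 5 of sterol sensing, 3 of transport between membranes, the 2 LXR receptors, 3 LXR targets, 2 genes of esterification and oxysterol formation and 4 of fatty acid synthesis and desaturation.

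Cells regulate their cholesterol at the level of transcription through opposing systems. When sterols in the endoplasmic reticulum are low, SCAP escorts SREBP2 to the Golgi, where it is cleaved, and the released factor raises the genes of sterol synthesis. When sterols are plentiful, INSIG proteins hold SCAP back, and oxysterols activate the LXR receptors, which raise the genes that export cholesterol.

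The libraries came from PT-22, a mouse proximal tubule line labelled Pax2-/-, Pax8fl/fl, Rosa-CreERT2, carrying Pax8 in the inducible vector pTRIPZ. By label, every group carries the same alleles, Pax2-/- included, and the same vector. The 3 groups of 3 libraries were collected untreated (day 0), after exposure to 1 uM 4-hydroxytamoxifen (day 6), and after a further period (day 12) in which cells received doxycycline at 1 ug/ml every 2 days for 6 days. The study asked how gene expression responds to loss and rescue of PAX8. The 4-hydroxytamoxifen exposure is given as 2 days in one label and as 6 days of depletion in the design. All cells grew in DMEM with 3% serum, and polyadenylated RNA was sequenced. No vehicle, untreated or doxycycline-free libraries from the later days were analysed here, so the effects of culture time, of either drug and of PAX8 cannot be told apart. Nothing in the labels gives replicates A, B and C separate cultures, and the p-values therefore reflect only library-to-library spread, possibly technical.

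Library totals ran from 56398623 to 86767334 counts. Pax8 did not fall by transcript level: its CPM (counts scaled to library size by TMM) averaged 291 ± 1.7 in untreated cells, 405 ± 5.9 on day 6 and 496 ± 7.8 on day 12 (SD, n = 3). These gene-level counts do not separate the floxed from the vector-borne transcript, so they do not check the deletion. Pax2, labelled as deleted in every group, averaged 31.9 ± 2.4, 46.9 ± 3.2 and 52.3 ± 3.2 CPM, and the counts do not show which exons these reads came from. Among 13 proximal tubule markers 5 passed the filter, and Slc34a1 and Slc22a6 were listed at 0 TPM (abundance scaled by transcript length and library) in every library. Hnf4a was at a mean of at most 0.00333 TPM. Of the 5 that passed 2 rose and 3 fell by day 6, where 33.5% of all genes rose and 31.4% fell. The water channel gene Aqp1 averaged 65.2, 184 and 216 TPM at days 0, 6 and 12, and Anpep 4.1, 10.6 and 10.4. The endocytic receptor gene Lrp2 averaged 33.3, 5.2 and 7.41 TPM, Ggt1 1.96, 0.507 and 2.61, and Cubn 0.337, 0.24 and 0.33. The 9 macrophage and leukocyte markers summed to 64.3 to 69.9, 119 to 121 and 114 to 123 TPM over the same days, while Adgre1 and Itgam were at or below 0.00333 TPM on average and Ptprc at or below 0.633. Cd14 was the most abundant of them, with means of 33.4, 90.4 and 87.3 TPM, and Lyz2 also rose by day 6, from 0.417 to 3.55 TPM. Csf1r fell from 12.1 to 3.85 TPM and Ptprc from 0.633 to 0.01 by day 6, and Cd68 was at 21.5 and 21.9 (not called). Endothelial markers summed to at most 0.21 TPM and hepatocyte and adipocyte markers to at most 0.29. Stromal markers summed to 4.96 to 5.1, 2.16 to 2.31 and 7.27 to 8.44 TPM. Within that list Dcn averaged 4.3, 0.4 and 5.26 TPM, whereas Col3a1 averaged 0, 0.25 and 0.423 and Pdgfrb 0.02, 0.64 and 0.46. Exons of 5 members overlap another gene on the same strand and those of 9 members a gene on the other strand. In bulk RNA, fewer cells of a type and less RNA per cell cannot be told apart.

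At day 6, sterol synthesis genes were lower and LXR targets higher than at day 0. Of the 18 synthesis genes 16 fell, 1 rose (Ebp) and 1 was not called (Dhcr7), with a median log2 fold change of −0.60. All 3 LXR targets rose, with a median of 1.11, against a median of 0.0224 over all genes tested. A gene is said to have risen or fallen where edgeR's quasi-likelihood test gave a Benjamini-Hochberg adjusted p under 0.05 over the 16353 genes. By that rule 33.5% of all genes rose and 31.4% fell between days 0 and 6. Of the 37 members, 13 rose (35.1%) and 22 fell (59.5%).

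Between days 6 and 12 differences were smaller than by day 6 for most members, and their calls depended on the scale. On TMM-scaled counts 2 members rose (Pmvk and Scap) and 22 fell, against 22.6% and 22.7% of all genes. On the deposited TPM, tested with limma, 11 rose and 9 fell, against 48.9% and 5.37% of all genes. The median of all genes moved by 0.00836 on the first scale and by 0.164 on the second, so the direction of small differences between these days depended on the scale. The TMM factors, which lower the CPM of a library when above 1, were 0.965 to 0.9676 at day 0. They were 0.9654 to 0.9754 at day 6 and 1.062 to 1.07 at day 12. Relative to the median of all genes, 34 of the 37 members lay on the same side on both scales. Against day 0, 11 members were higher and 23 lower at day 12 on counts, where 34.7% of all genes rose and 31.7% fell, and 14 were higher and 16 lower on TPM, where 51.7% of all genes rose and 11.9% fell. Of 93 calls on counts over the 3 comparisons, 70 were kept on log2(TPM + 1), 16 were lost with the same sign and 7 were lost with the sign turned. Those 7 lay between 0 and 0.08 on log2(TPM + 1), with limma adjusted p of 0.45 or more. At day 12 against day 0 the synthesis genes had a median of −0.74 and the LXR targets of 1.16 on counts. These 3 comparisons share libraries and are not independent of each other.

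**Figure D1:**
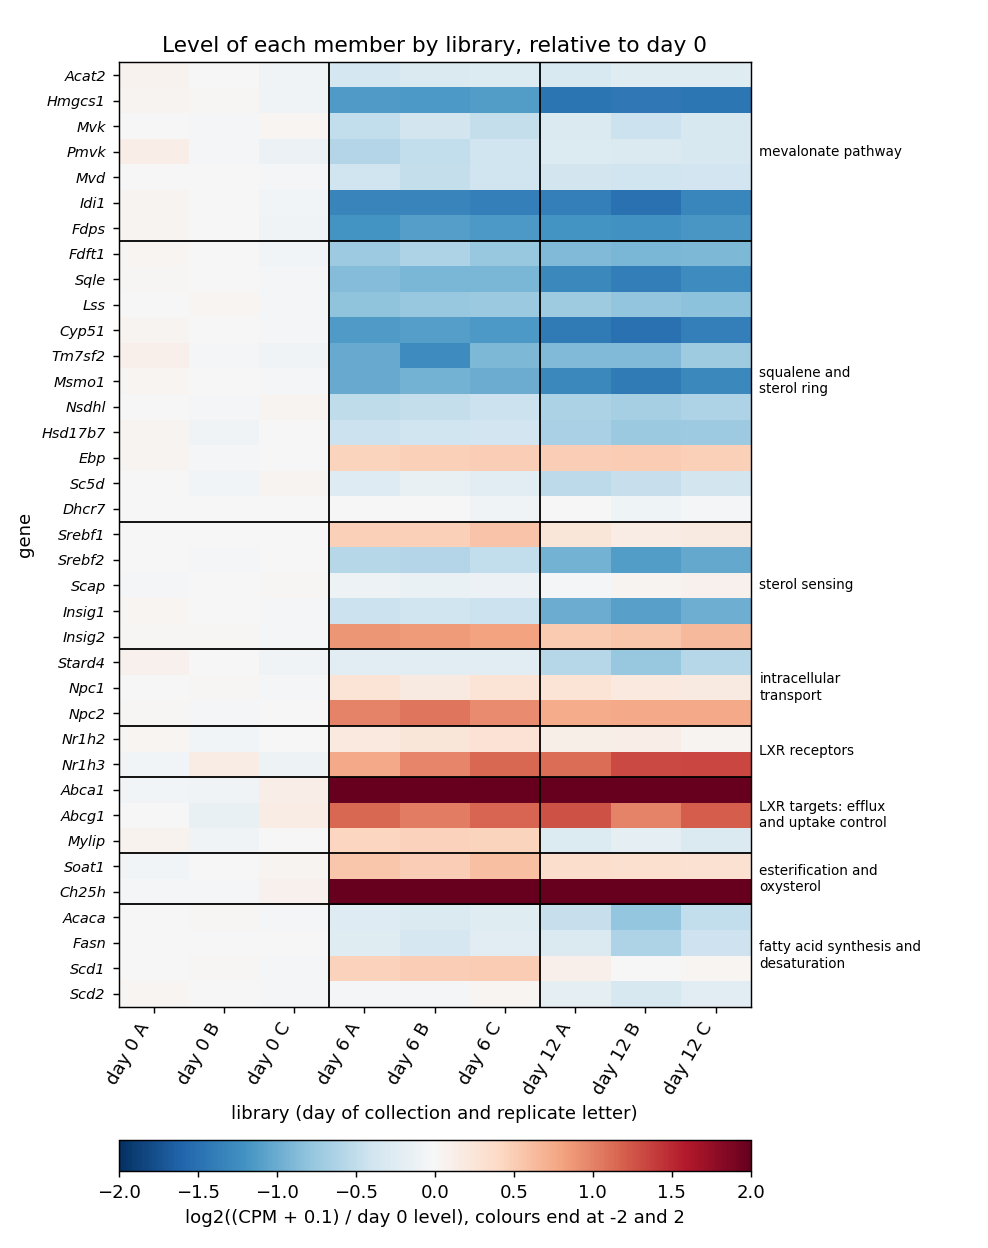
Each row is 1 of the 37 genes and each column 1 of the 9 libraries, and colour gives the log2 ratio of CPM + 0.1 to the mean of the day 0 libraries, with colours ending at −2 and 2. Most synthesis genes are blue at days 6 and 12, whereas Abca1 and Ch25h reach the red end of the scale.

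The mevalonate pathway turns acetyl units into the isoprenoid building blocks of sterols. All 7 of its genes measured here fell by day 6 (median −0.50), against 31.4% of all genes. Hmgcs1, the HMG-CoA synthase at its start, stood at 224, 218 and 205 CPM in day 0 libraries A, B and C, at 97.7, 96.7 and 99.7 at day 6 and at 78.6, 79.8 and 79.5 at day 12. Its 3 groups did not overlap, and every later group was lower than the one before. The log2 fold change was −1.14 (SE 0.034, adjusted p = 1.69e-13) at day 6 against day 0 and −0.31 (SE 0.034, adjusted p = 4.53e-06) at day 12 against day 6. On log2(TPM + 1) the second difference was −0.07 (limma adjusted p = 0.119).

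Idi1, the isomerase that interconverts the first isoprenoid units, fell most among the synthesis genes by day 6. It stood at 115, 112 and 107 CPM at day 0, at 44.4, 44.3 and 43.2 at day 6 and at 43.3, 39.5 and 45.0 at day 12. The day 6 and day 12 libraries overlapped, and both lay below all day 0 libraries. The fall from day 0 was 1.34 on the log2 scale at day 6 (SE 0.043, adjusted p = 4.92e-13) and the difference between days 6 and 12 was −0.05 (SE 0.045, adjusted p = 0.424). Fdps, which makes farnesyl diphosphate, had the same course, with 390, 377 and 356 CPM at day 0, 164, 174 and 169 at day 6 and 163, 161 and 166 at day 12. It was 2.21-fold lower at day 6 than at day 0 (adjusted p = 4.23e-13). On TPM, which allows genes to be compared by length, Fdps was the most abundant synthesis transcript, at 497 ± 23, 229 ± 7.0 and 257 ± 10 TPM (SD, n = 3). Of its 4208 exon bases 1124 overlap Gm43738 on the same strand.

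The other mevalonate genes moved less. Mvd, the decarboxylase, averaged 22.9, 17.1 and 17.5 CPM at days 0, 6 and 12, and Mvk, the mevalonate kinase, 15.7, 11.5 and 12.3. Both fell by day 6, by 0.42 (adjusted p = 2.99e-07) and 0.45 (adjusted p = 4.88e-06) on the log2 scale, and neither was called between days 6 and 12 on counts. On log2(TPM + 1) both were called higher at day 12 than at day 6, by 0.23 and 0.28 (limma adjusted p = 1.85e-03 and 3.44e-03). Mvk at day 12 against day 0 was −0.11 on that scale and not called (limma adjusted p = 0.139). Acat2, the cytosolic thiolase of the first step, averaged 69.0, 55.7 and 57.6 CPM and fell by 0.31 (adjusted p = 3.04e-06). On TMM-scaled counts Pmvk, the phosphomevalonate kinase, was the only synthesis gene called higher at day 12 than at day 6, by 0.20 (SE 0.066, adjusted p = 0.0209). Omitting replicate A of either group, day 6 or day 12, ended this call. The log2(TPM + 1) scale, on which 48.9% of all genes rose between these days, gave further calls. Acat2 (0.26), Fdps (0.17), Dhcr7 (0.17), Ebp (0.28) and Tm7sf2 (0.31) were called higher there too, and Sqle (−0.20) and Msmo1 (−0.14) lower.

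The squalene and ring branch joins farnesyl units, closes the sterol ring and trims it to cholesterol. Of its 11 genes 9 fell by day 6 (81.8%), against 31.4% of all genes. Sqle, the squalene epoxidase, stood at 306, 303 and 292 CPM at day 0, at 165, 160 and 160 at day 6 and at 123, 115 and 125 at day 12. The groups did not overlap and fell in order of day, by 0.89 (SE 0.035, adjusted p = 4.32e-12) and then by 0.42 (SE 0.035, adjusted p = 2.75e-07). Cyp51, the lanosterol demethylase, stood at 215, 207 and 201, then 94.3, 96.4 and 93.7, then 77.7, 74.0 and 80.2 CPM. It too fell at both steps without overlap, by 1.13 and 0.30 on the log2 scale (adjusted p = 3.22e-13 and 9.91e-06), but the second difference was −0.08 on log2(TPM + 1) (limma adjusted p = 0.207). Msmo1, the methylsterol monooxygenase, averaged 124, 62.6 and 49.1 CPM and fell by 0.99 and then by 0.35 (adjusted p = 2.56e-12 and 3.16e-06).

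Fdft1, the squalene synthase, averaged 91.9, 56.5 and 49.0 CPM and fell by 0.70 and 0.21 (adjusted p = 2.41e-10 and 5.36e-04), the second being −0.03 and not called on log2(TPM + 1). Its exons overlap those of Ctsb on the other strand, and the strand setting of the counting is not given in the sources used here. Lss, the ring-closing lanosterol synthase, fell by 0.77 by day 6 (adjusted p = 2.32e-11) and had means of 68.5 and 68.4 CPM at days 6 and 12 (adjusted p = 0.962). Nsdhl and Hsd17b7, which act in removing methyl groups from the ring, fell by 0.47 and 0.41 by day 6 and by a further 0.17 and 0.30 by day 12, all called, although the second differences were 0.04 and −0.07 on log2(TPM + 1), neither called. Sc5d, the sterol desaturase, fell by 0.20 and 0.25 (adjusted p = 7.81e-04 and 3.74e-04), the second being −0.07 and not called on log2(TPM + 1). Tm7sf2, a sterol reductase at only 6.52, 3.10 and 3.64 CPM on average, fell by 1.08 by day 6 (adjusted p = 1.46e-07) and shares exon bases with Vps51 on its own strand.

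Ebp and Dhcr7 departed from the other ring genes. Ebp, the isomerase that moves a ring double bond, stood at 43.2, 40.4 and 41.6 CPM at day 0, at 56.6, 58.4 and 58.8 at day 6 and at 59.0, 59.1 and 57.8 at day 12. All later libraries exceeded all day 0 libraries, and the 2 later groups overlapped. The rise was 0.47 on the log2 scale by day 6 (SE 0.034, adjusted p = 6.37e-09). Dhcr7, which makes cholesterol from 7-dehydrocholesterol, averaged 35.0, 34.6 and 34.2 CPM, with adjusted p of 0.672, 0.721 and 0.386 in the comparisons of day 6 with 0, 12 with 6 and 12 with 0. Its log2 difference at day 6 was −0.02 (SE 0.037).

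Summed over the 18 synthesis genes, the untreated cells held 1300 ± 43 TPM, the day 6 cells 744 ± 12 and the day 12 cells 793 ± 37 (SD, n = 3). Fdps made up 38.2%, 30.8% and 32.4% of these sums.

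**Figure D2:**
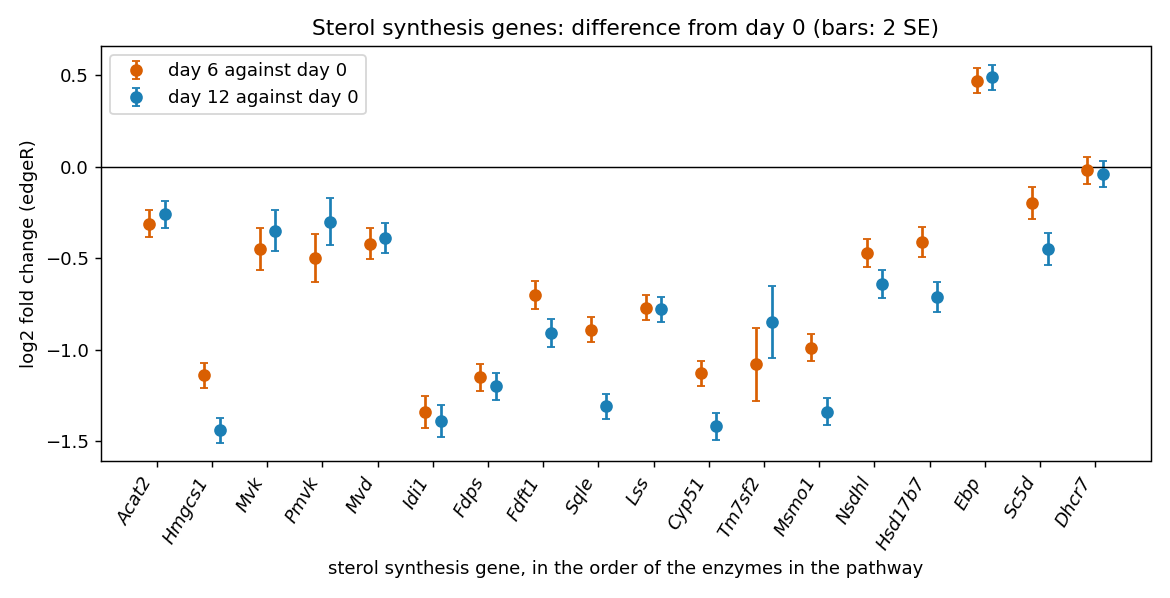
Points give the log2 fold change of each of the 18 synthesis genes against day 0, in pathway order, with bars of 2 SE, for day 6 and day 12. Ebp is the only gene above 0 in both comparisons, and Hmgcs1, Idi1, Fdps and Cyp51 lie below −1 in both.

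Promoters of the synthesis genes were read from the RefSeq table of the same build, GRCm38.p6, which holds 250 bases before and 50 after each start. Windows were found for 29 of the 37 members. The sterol regulatory element core bound by SREBP was searched as TCACNCCAC and the box bound by NF-Y, a factor known to act with SREBP, as CCAAT, each on both strands. Of 15 synthesis genes with a window 14 held a CCAAT box, compared with 43.1% of the 11087 tested genes with a window and 37.4% of all 32851 windows, and 8 of the 14 other members held one. The exact core was found in Hmgcs1 alone among the members, and in 1.43% of tested genes and 1.24% of all windows. With at most 1 of its 8 fixed bases changed, a form chosen after the first search was seen, it was found in 7 of the 15 synthesis genes, 5 of the 14 other members and 29.3% of tested genes. The direct repeat of the half-site AGGTCA with 4 bases between, which LXR binds, was in none of the members' windows and in 0.0152% of all windows. That LXR search took the exact repeat only, and none of the 11087 tested genes with a window held it. Its absence therefore does not set the members apart. A looser form of the LXR repeat was found in Pmvk alone among the members and in 2.46% of tested genes. LXR sites with other letters would be missed by these searches. A match is a description of letters and not a measured site, and a missing match does not show that a window lacks a site.

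The stretches before the start are printed for the only member with the exact core (Hmgcs1), one that fell less (Mvd), the one that rose (Ebp), and the sensing genes Srebf2, Insig1 and Insig2 (the 1 of its 3 windows with boxes), which moved in different directions. They run 5′ to 3′ along the gene's own strand, and capitals mark the SRE core and the CCAAT boxes, which read ATTGG on the opposite strand.
Hmgcs1 (chr13:119690101-119690350, plus strand): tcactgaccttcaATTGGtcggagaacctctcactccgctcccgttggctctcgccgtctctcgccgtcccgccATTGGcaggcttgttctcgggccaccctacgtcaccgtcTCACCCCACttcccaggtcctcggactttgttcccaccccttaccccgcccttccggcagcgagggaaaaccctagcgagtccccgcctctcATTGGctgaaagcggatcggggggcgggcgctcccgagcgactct
Mvd (chr8:122443423-122443672, minus strand): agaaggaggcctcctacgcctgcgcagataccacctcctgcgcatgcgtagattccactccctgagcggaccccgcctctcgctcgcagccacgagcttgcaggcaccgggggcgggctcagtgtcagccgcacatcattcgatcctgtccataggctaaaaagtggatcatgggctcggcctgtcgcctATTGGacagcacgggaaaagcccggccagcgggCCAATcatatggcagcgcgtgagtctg
Ebp (chrX:8193513-8193762, minus strand): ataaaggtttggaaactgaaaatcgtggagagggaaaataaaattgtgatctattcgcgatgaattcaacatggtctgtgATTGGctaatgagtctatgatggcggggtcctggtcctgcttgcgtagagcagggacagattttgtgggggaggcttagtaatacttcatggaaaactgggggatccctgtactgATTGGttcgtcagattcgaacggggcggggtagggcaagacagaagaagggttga
Srebf2 (chr15:82147019-82147180, plus strand): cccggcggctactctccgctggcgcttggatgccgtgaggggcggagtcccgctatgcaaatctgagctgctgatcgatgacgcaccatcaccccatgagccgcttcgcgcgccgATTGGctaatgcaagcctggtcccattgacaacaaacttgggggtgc
Insig1 (chr5:28071162-28071362, plus strand): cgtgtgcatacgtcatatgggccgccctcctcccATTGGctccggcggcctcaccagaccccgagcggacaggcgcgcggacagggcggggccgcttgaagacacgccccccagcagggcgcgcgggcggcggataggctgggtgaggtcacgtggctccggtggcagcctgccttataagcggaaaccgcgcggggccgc
Insig2 (chr1:121332590-121332839, minus strand): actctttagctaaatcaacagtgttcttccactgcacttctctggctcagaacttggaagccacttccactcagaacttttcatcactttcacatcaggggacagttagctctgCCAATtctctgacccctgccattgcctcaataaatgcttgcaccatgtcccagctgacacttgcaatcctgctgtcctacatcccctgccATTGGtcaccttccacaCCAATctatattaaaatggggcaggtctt
In Hmgcs1 the core begins at −137 from the RefSeq start, between boxes at −176 and −45. Ebp, which rose, holds boxes at −170 and −55, and Mvd, which fell, at −60 and −27. Insig1 holds 1 box and the window of Insig2 printed here holds 3, while the windows at its other two RefSeq starts hold 0, so the box was present in members that rose and in members that fell.

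Among the sterol-sensing genes the paired members moved apart from day 0 to day 6. Between days 6 and 12 both members of each pair fell on counts. Srebf2, which encodes SREBP2, stood at 848, 831 and 852 CPM at day 0, at 571, 563 and 601 at day 6 and at 439, 389 and 413 at day 12. The groups did not overlap and fell in order of day. It fell by 0.54 (SE 0.041, adjusted p = 1.37e-08) and then by 0.48 (SE 0.042, adjusted p = 3.40e-07), which left it 2.04-fold lower at day 12 than at day 0. Srebf1, whose products act more on fatty acid genes, stood at 166, 166 and 165, then 231, 231 and 246, then 195, 184 and 187 CPM. It was highest at day 6 in every library, with log2 differences of 0.51 and −0.32 at the successive steps (adjusted p = 2.30e-09 and 2.09e-06), the second being −0.06 and not called on log2(TPM + 1).

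Insig1, an SREBP target whose product retains SCAP, stood at 171, 167 and 162 CPM at day 0, at 124, 127 and 124 at day 6 and at 83.5, 78.7 and 84.2 at day 12. It fell at each step without overlap, by 0.42 and 0.61 (adjusted p = 1.83e-08 and 2.97e-09). Insig2, its relative, stood at 55.2, 54.9 and 52.5, then 99.9, 97.4 and 94.3, then 78.0, 79.5 and 84.7 CPM. It was highest at day 6 in every library, up by 0.84 on day 0 (SE 0.037, adjusted p = 2.05e-11) and down by 0.27 afterwards (adjusted p = 3.03e-05). Scap averaged 50.4, 46.4 and 51.6 CPM, a fall of 0.12 and a rise of 0.15 (adjusted p = 7.18e-03 and 2.01e-03), and its day 0 and day 12 libraries overlapped.

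**Figure D3:**
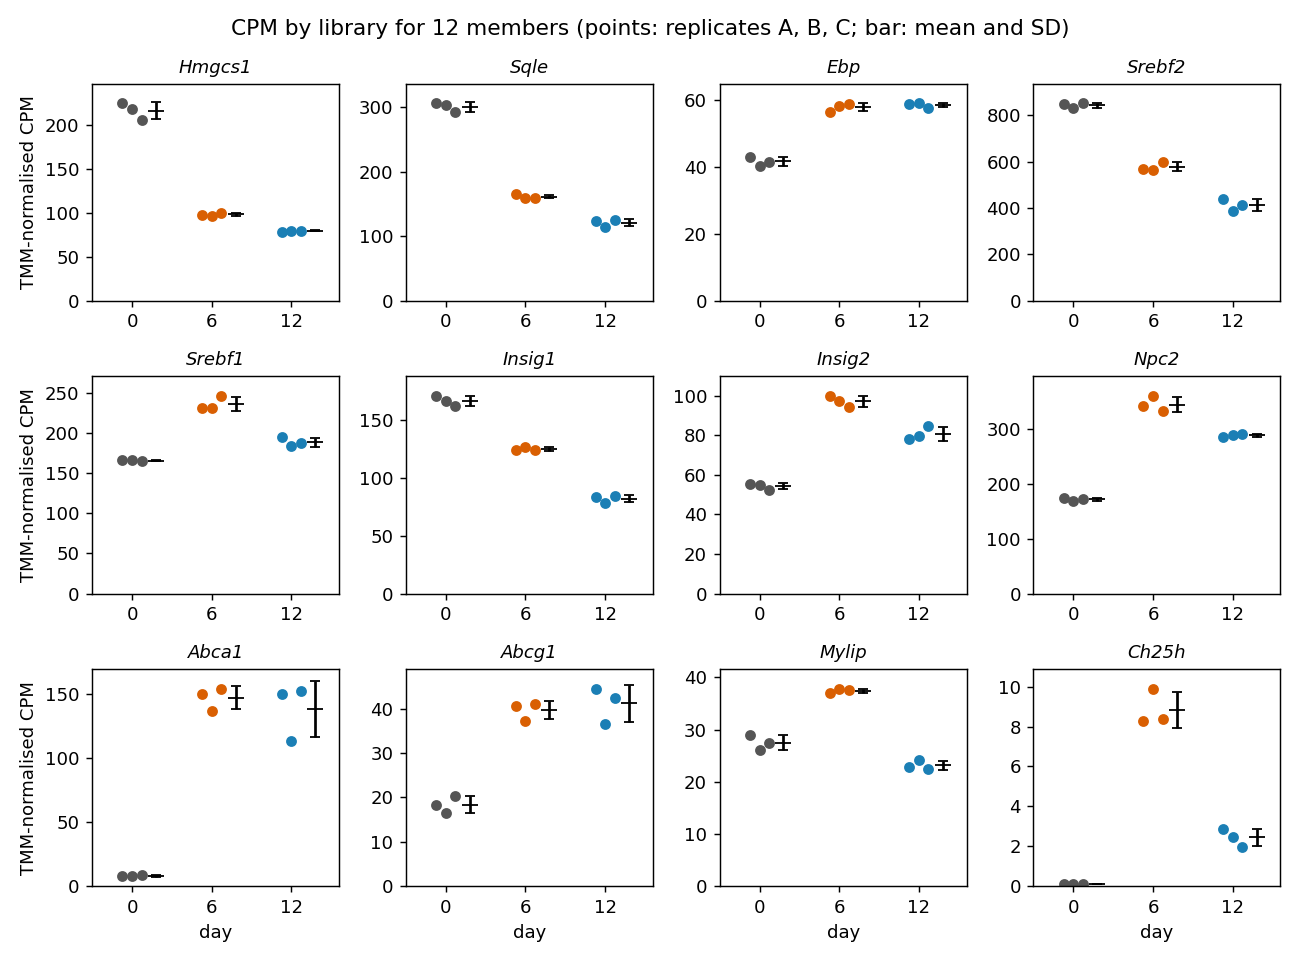
Points are the CPM of replicates A, B and C by day for 12 members, and the bar beside them is the mean with the SD. Srebf2 and Insig1 fall at each step, Insig2 and Ch25h are highest at day 6, and Abca1 stays high at day 12 with replicate B at 113 CPM.

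Sterol transport genes were mixed. Npc2, which hands cholesterol from the lysosome lumen to NPC1, stood at 173, 169 and 171 CPM at day 0, at 341, 359 and 331 at day 6 and at 285, 288 and 290 at day 12. All later libraries were above all day 0 libraries. It was 2.01-fold higher at day 6 (adjusted p = 5.87e-13) and 1.68-fold higher at day 12 (adjusted p = 2.59e-11) than at day 0. Its fall of 0.26 between days 6 and 12 (adjusted p = 1.53e-05) was −0.05 and not called on log2(TPM + 1). Npc1, its membrane partner, averaged 33.0, 39.1 and 38.2 CPM and rose by 0.24 by day 6 (adjusted p = 5.27e-05). Stard4, a cytosolic sterol carrier and SREBP target, averaged 102, 88.1 and 66.0 CPM and fell by 0.21 and then by 0.42 (adjusted p = 7.95e-04 and 4.96e-06).

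The LXR receptors differed in level by far. Nr1h2, which encodes LXR beta, averaged 49.8, 59.9 and 61.7 TPM, while Nr1h3, which encodes LXR alpha, averaged 0.257, 0.43 and 0.74 TPM. Nr1h3 rested on 38, 88 and 119 counts summed over 3 libraries, and rose by 1.31 on the log2 scale by day 6 (SE 0.29, adjusted p = 9.19e-04). This call was lost on TPM, with 0.19 on log2(TPM + 1) (limma adjusted p = 0.166) and 0.59 on log2(TPM + 0.1) (limma adjusted p = 0.0966). Nr1h2 rose by 0.24 (SE 0.036, adjusted p = 3.09e-05).

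Abca1, the transporter that loads cholesterol onto apolipoprotein A-I, rose from a low level and stayed high. It stood at 7.78, 7.72 and 8.87 CPM in the day 0 libraries, at 150, 137 and 154 at day 6 and at 150, 113 and 152 at day 12. No later library came near the day 0 level, and the day 6 and day 12 libraries overlapped. The log2 fold change was 4.18 at day 6 (SE 0.11, adjusted p = 3.26e-14) and 4.09 at day 12 (SE 0.11, adjusted p = 6.58e-14) against day 0, or 18.1-fold and 17.0-fold. Abcg1, which exports cholesterol to high-density lipoprotein, stood at 18.3, 16.5 and 20.3, then 40.6, 37.3 and 41.1, then 44.5, 36.6 and 42.5 CPM. All later libraries exceeded all day 0 libraries, with a rise of 1.11 from day 0 to day 6 (adjusted p = 3.77e-09) and a further difference of 0.05 (SE 0.071, adjusted p = 0.573). On log2(TPM + 1), where 48.9% of all genes rose between days 6 and 12, that further difference was 0.41 and called (limma adjusted p = 4.48e-03).

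Mylip, which encodes the ubiquitin ligase IDOL that sends lipoprotein receptors for degradation, took another course. It stood at 28.9, 26.1 and 27.5 CPM at day 0, at 37, 37.8 and 37.5 at day 6 and at 22.8, 24.1 and 22.5 at day 12. It was highest at day 6 and lowest at day 12, with no overlap. It rose by 0.44 (adjusted p = 2.40e-07) and then fell by 0.69 (adjusted p = 1.29e-08). On counts it ended 0.25 below day 0 (adjusted p = 1.52e-04), whereas on log2(TPM + 1) the difference from day 0 was 0.02.

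Ch25h, which makes the LXR-activating oxysterol 25-hydroxycholesterol, went from 0.0956, 0.0959 and 0.115 CPM at day 0 to 8.26, 9.89 and 8.37 at day 6 and 2.86, 2.48 and 1.99 at day 12. The groups did not overlap, and the day 0 level rested on 22 counts over 3 libraries, against 1778 and 526 at the later days. Its log2 fold change was 6.41 at day 6 against day 0 (SE 0.19, adjusted p = 2.46e-13) and −1.85 at day 12 against day 6 (SE 0.12, adjusted p = 1.44e-08). Soat1, which esterifies cholesterol for storage, averaged 48.9, 71.5 and 61.2 CPM and rose by 0.55 by day 6 (adjusted p = 4.08e-09). Among the macrophage and leukocyte markers given above, 2 of the 5 tested rose and 2 fell by day 6, against 33.5% and 31.4% of all genes. Adgre1 and Itgam were at or near 0.

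Of the 4 fatty acid genes 1 rose and 2 fell by day 6, where 33.5% of all genes rose and 31.4% fell. All 4 fell between days 6 and 12 on counts (median −0.27), where 22.7% of all genes fell. Scd1, a stearoyl-CoA desaturase, averaged 174, 243 and 180 CPM, up by 0.48 and then down by 0.43 (adjusted p = 1.88e-09 and 5.03e-08). Its relative Scd2 averaged 1320 CPM at days 0 and 6 (adjusted p = 0.911) and 1110 at day 12, a fall of 0.25 (adjusted p = 9.11e-05) that was −0.03 and not called on log2(TPM + 1), and reads from such similar genes can be split between them in counting. Acaca and Fasn, which make malonyl-CoA and palmitate, fell by 0.26 each by day 6 (adjusted p = 8.65e-04 and 1.77e-03). On log2(TPM + 1) these differences were −0.19 and −0.13 and neither was called (limma adjusted p = 0.134 and 0.313). Acaca fell by a further 0.30 by day 12 (adjusted p = 6.41e-04), which was −0.05 on log2(TPM + 1) (limma adjusted p = 0.707). Fasn at day 12 stood at 244, 193 and 223 CPM, and its further fall of 0.17 (adjusted p = 0.0328) became −0.09 (adjusted p = 0.122) without day 12 replicate B and 0 on log2(TPM + 1). The call was also lost without day 6 replicate A or C, or day 12 replicate C.

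**Figure D4:**
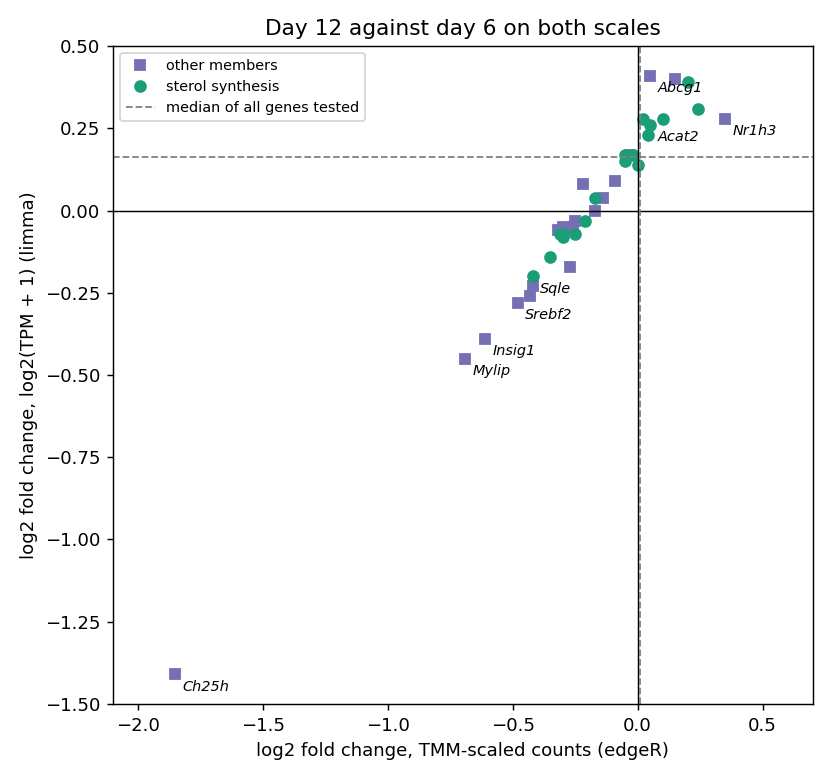
Each point is a member, with its log2 fold change of day 12 against day 6 on TMM-scaled counts along x and on log2(TPM + 1) along y, and dashed lines mark the median of all genes tested. The median of all genes lies at 0.164 on the TPM axis, Abcg1 lies at 0.05 on counts and 0.41 on TPM, and Ch25h, Mylip and Insig1 lie below 0 on both axes.

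Other genes of these pathways, in 7 lists holding 84 genes, are given by count at day 6 against day 0, to be read beside the 33.5% of all genes that rose and the 31.4% that fell. In the non-sterol isoprenoid branch 6 of 9 tested genes fell (66.7%) and 1 rose, among them Coq2, the ubiquinone prenyltransferase, which fell by 1.07 (adjusted p = 7.62e-11) and then rose by 0.68 (adjusted p = 1.43e-07). Among 10 genes of SREBP cleavage and sensor turnover 8 fell (80%) and 2 rose, with Erlin2 down by 0.48 and Rnf145 up by 0.53. Among RXR partners and other LXR targets 6 of 7 rose (85.7%) and 1 fell. Arl4c, an LXR-responsive small GTPase, stood at 257, 256 and 262 CPM at day 0 and at 462, 464 and 465 at day 6 (log2 fold change 0.84, adjusted p = 8.36e-13). Rxra, the LXR partner, rose by 0.80 (adjusted p = 2.58e-12).

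Of 20 genes of lysosomal and inter-membrane transfer 13 rose (65%) and 5 fell (25%), with Lipa, the lysosomal lipase, up by 0.64 and Osbpl5 by 0.85. Of 5 tested uptake receptors 3 fell (60%) and 1 rose (20%). Lrp8 fell by 1.59 (adjusted p = 3.42e-13), while Lrp1 rose by 1.08 (adjusted p = 1.05e-06). Among 7 ester and oxysterol genes 4 rose (57.1%) and 2 fell (28.6%), with Cyp39a1, an oxysterol hydroxylase, up by 1.06. Of 20 other lipid synthesis genes 7 rose (35%) and 10 fell (50%). Acsl3, a fatty acid activating enzyme, rose by 1.36 and then fell by 0.85, whereas Mid1ip1, an activator of acetyl-CoA carboxylase, fell by 1.13 and then rose by 0.92, all called. Elovl6, a fatty acid elongase, was 1.88 lower on the log2 scale at day 12 than at day 0 (adjusted p = 1e-12).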

How the data were processed

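The authors deposited whole-number counts per gene, and TPM in a second table. The submitters' processing notes name STAR 2.7.8a, RSEM 1.3.3, cutadapt 2.3 and FastQC 0.11.8, with the build GRCm38. Which tool made the counts, and with which strand setting, is not given in the sources used here. A further 4 transgene entries, with 0.00204% to 0.00284% of the counts of a library, were left out. Genes were filtered with filterByExpr by group, scaled by TMM and fitted in R 4.3.3 by the quasi-likelihood F test of edgeR 4.0.16, in 1 model of 9 libraries with 6 residual degrees of freedom and Benjamini-Hochberg adjustment over 16353 genes. The procedure was tested on simulated data. SEs are those implied by the F statistic. The deposited TPM were tested with limma 3.58.1 as log2(TPM + 1), and with a pseudocount of 0.1. DESeq2 1.42.0, other scalings, filters, a replicate block and leaving out each library were further alternatives. In each pathway list, the 2 genes with the smallest adjusted p per comparison could be named. Members and lists were chosen with earlier results of these data known. Exon overlaps came from GENCODE M21, which holds 55227 of the 55487 gene identifiers, and promoters from RefSeq on GRCm38.p6. Some genes of the pathway are not reported here.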

Additional observations from a re-analysis of the deposited data

Results flagged for a closer look

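As unscaled shares, transgene entries that the comparisons leave out held signal above the untreated libraries. The cre entry ran from 18.2 to 20.7 CPM (unscaled share of all counts) in the day 0 libraries and from 16.4 to 17.3 at day 6. Its lowest day 12 library, at 21.4, exceeded all day 0 libraries. The TMM factors were 0.965 to 0.9676 at day 0 and 1.062 to 1.07 at day 12. Divided by these factors, the day 12 cre shares would not all lie above those of day 0. The tdtomato entry ran from 2.15 to 2.86 CPM at day 0, and its lowest library was at 3.92 at day 6 and 4.62 at day 12. The sum of the 4 entries ran from 21 to 23.5 CPM at day 0, and its lowest day 12 library was at 26.2. The egfp and mcherry entries were at 0 counts in all 9 libraries. These differences were not tested.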

How the results depend on the processing

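The largest dependence was on scale. On log2(TPM + 1) and log2(TPM + 0.1), the synthesis median at day 6 against day 0 was −0.52 and −0.54 (−0.60 on counts), at day 12 against day 0 −0.41 and −0.44 (−0.74), and at day 12 against day 6 0.14 and 0.15 (−0.05, so the sign turned). The LXR target median was 1.52 and 1.68 at day 12 against day 0 (1.16), and 0.09 and 0.10 at day 12 against day 6 (−0.09, also turned). Both TPM forms called 11 members higher and 9 lower at day 12 against day 6, where counts called 2 and 22. Over all genes, TPM + 1 called 7998 higher and 878 lower there, upper-quartile scaling 4613 and 3007, and the counts as reported 3702 and 3706. On log2(TPM + 1), 70 of 93 member calls were kept, 16 were lost with the same sign and 7 were lost with the sign turned. None of the 7 was called on that scale. Of the 18 differences not called on counts, 8 were called there with the same sign and 4 with the sign turned. The former were Abcg1, Acat2, Ebp, Mvd, Mvk and Tm7sf2 at day 12 against day 6, and Scap and Scd1 at day 12 against day 0. Differences called on either scale that turned sign, with both pseudocounts, were at day 12 against day 0 Acat2 (0.01), Dhcr7 (0.18 and 0.19), Mylip (0.02) and Scd2 (0.01), and at day 12 against day 6 Dhcr7 (0.17), Fasn (0), Fdps (0.17), Npc1 (0.17 and 0.18), Nr1h2 (0.04), Nsdhl (0.04) and Soat1 (0.08). Abca1 (0.09 and 0.10) and Idi1 (0.15) also turned there, called on neither scale. Lss, at 0.998-fold on counts in the same comparison, was 0.14 on log2(TPM + 1), also called on neither. The cause was not tested.

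Leaving out 1 library at a time gave synthesis medians of −0.64 to −0.57 at day 6 against day 0, LXR target medians of −0.16 to 0.04 at day 12 against day 6, 1 to 3 members higher and 21 to 22 lower in the latter. Without day 12 replicate B the LXR target median was 0.04. Of 837 single-member calls over these fits, 827 were kept, 10 were lost (Fasn and Pmvk at day 12 against day 6, Nr1h2 at day 12 against day 0) and 1 was gained (Tm7sf2 at day 12 against day 6). Of the 93 calls, DESeq2 ended 2, its size factors 1, the 2-group fit 1, and upper-quartile scaling 1 (Fasn) while it added 2 (Scd1 and Tm7sf2). Leaving out mitochondrially encoded genes, chosen after seeing the data, ended none, nor did dropping the filter. Same-letter libraries did not deviate together (r −0.083 to 0.078), and a fit with the replicate letter as a block kept all 93 member calls, with 13 members higher and 22 lower at day 6, 2 and 22 at day 12 against day 6, and 11 and 23 at day 12 against day 0. Counts limit Nr1h3 and day 0 Ch25h, which rested on 38 and 22 reads over 3 libraries.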
